A study of Mus musculus with 4 samples.

Results

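The 9 genes described here make, bind, break down or respond to retinoic acid. All were measured by RNA-seq in sorted ID4-EGFP+ cells with and without *Cnot3*. The study describes these cells as spermatogonia, and the libraries also held reads of Sertoli cell, Leydig cell and macrophage marker genes. The 9 genes were chosen by name out of 54920 listed genes: *Rdh10*, *Dhrs3*, *Aldh1a1*, *Aldh1a2*, *Crabp1*, *Cyp26b1*, *Rara*, *Rarg* and *Stra8*. All 9 were listed and all 9 passed the expression filter, and the fewest reads of any of them in a library were 263, for *Cyp26b1*. The study asked what the loss of CNOT3, a subunit of the CCR4-NOT complex that shortens the poly(A) tails of mRNAs, does to early male germ cells. Control mice were *Cnot3* flox/flox and carried *Id4-eGfp*, a reporter that marks spermatogonial stem cells. *Cnot3*-cKO mice had in addition *Ddx4*-creER, a Cre recombinase made in germ cells and switched on by 4-OHT. All mice of both groups received 4-OHT on postnatal days 1 to 3, and green cells were sorted from the testis on postnatal day 8. The sample labels call the controls wild-type, whereas the design text gives them the floxed alleles, so neither group is free of floxed *Cnot3*. Each group had 2 libraries. The study describes its replicates of this experiment as biological and counts more of them per group than were analysed here. The labels do not tie the libraries to animals, and the p-values measure the spread between these libraries only.

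Retinoic acid is made from vitamin A in 2 steps inside the cell. Retinol is first oxidised to retinal, a step that can run backwards, and retinal is then oxidised to retinoic acid by aldehyde dehydrogenases, a step that cannot. Retinoic acid is carried by small binding proteins, is broken down by enzymes of the CYP26 family, and acts through receptors of the RAR family that sit on DNA as pairs with RXR. In the testis it drives undifferentiated spermatogonia into differentiation, when *Stra8* and *Kit* are switched on, and it acts again at the entry into meiosis. Before germ cells have matured, the surrounding Sertoli cells are a main source of it.

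The control libraries had totals of 40957899 and 43378493 reads, against totals of 22192964 and 28019626 for *Cnot3*-cKO, and 23952 genes were tested with edgeR's quasi-likelihood test. Values are CPM, reads scaled to a common library total with TMM factors, unless said otherwise. Calling a gene took a more than 2-fold change together with an adjusted p (Benjamini-Hochberg) of less than 0.01. With 2 libraries against 2, the smallest two-sided p of an exact permutation test on 1 gene is 0.333, and each adjusted p from edgeR rests on the dispersion shared across genes. *Cnot3* itself (chromosome 7, 3645268 to 3661109, forward strand) had 58.6 and 50.2 CPM in controls and 19.2 and 19.9 CPM in *Cnot3*-cKO libraries. Its log2 fold change was -1.48 (standard error 0.13, edgeR adjusted p = 1.48e-05), so the targeted gene went the way of the labels. The genes *Leng1*, on the other strand, and *Mir3572*, on the same strand, overlap exons of *Cnot3*.

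Of the 9 genes, 2 were called higher in *Cnot3*-cKO cells (*Aldh1a1* and *Dhrs3*) and 2 were called lower (*Rarg* and *Stra8*). Of all tested genes 4.03% were called higher and 0.735% lower, 4.76% in all. The 9 genes were chosen with earlier results of these data known, so these shares give a scale and are not a test. The other 5 of the 9 were not called. Of these, *Crabp1* and *Aldh1a2* passed a looser threshold, an adjusted p under 0.05 whatever the fold change, on the lower side. That threshold takes 11.1% of all tested genes as higher and 9.46% as lower. The libraries of the groups did not overlap for 8 of the 9 genes, 3 of them higher and 5 of them lower in *Cnot3*-cKO cells. This is true of 59.1% of all tested genes (30.5% higher and 28.6% lower), so lack of overlap alone says little with so few libraries. The median log2 fold change of the 9 was -0.25, against 0.01 over all tested genes.

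**Figure D1:**
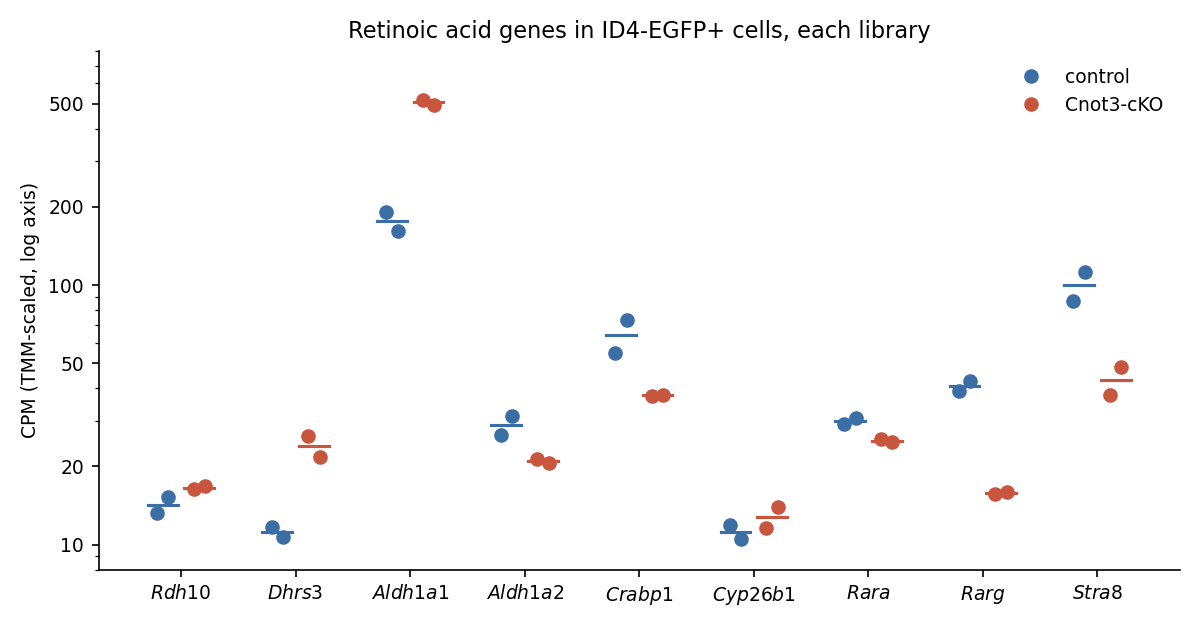
CPM on a log axis for each of the 9 genes, in order of role from synthesis to target, with 1 point per library and a line at each group's mean (2 libraries a group). *Aldh1a1* sits at 161.6 and 190.8 CPM in controls and at 494.9 and 519.0 in *Cnot3*-cKO libraries, *Rarg* and *Stra8* are clearly separated in the opposite direction, and the points of *Cyp26b1* interleave.

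*Aldh1a1* was the most abundant of the 9 by read count and rose in *Cnot3*-cKO cells. It encodes a cytosolic aldehyde dehydrogenase that turns retinal into retinoic acid (chromosome 19, 20492715 to 20643465, forward strand, GRCm38). The controls had 190.8 and 161.6 CPM and the *Cnot3*-cKO libraries 519.0 and 494.9 CPM, and the means were 176.2 ± 20.7 (SD, n = 2) and 506.9 ± 17.1 (SD, n = 2). Both *Cnot3*-cKO libraries lay far above both controls. The log2 fold change was 1.52 (standard error 0.09, edgeR adjusted p = 1.28e-06), a level 2.88 times that of controls. *Aldh1a1* took 41.1% and 33.1% of the reads over the 9 genes in controls and 73.0% and 71.3% in *Cnot3*-cKO libraries.

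*Aldh1a2*, which encodes a second enzyme of the same step (chromosome 9, 71215789 to 71296243, forward strand), was not called. It had 26.4 and 31.3 CPM in controls and 21.3 and 20.5 in *Cnot3*-cKO libraries, so both *Cnot3*-cKO libraries lay below the controls. Its log2 fold change of -0.47 (standard error 0.14, edgeR adjusted p = 0.0365) missed the threshold for a call. Measured within each library as reads per kb of exon, *Aldh1a1* stood at 3.32 and 2.36 times *Aldh1a2* in controls and at 11.2 and 11.0 times in *Cnot3*-cKO libraries. The ratio of these retinal dehydrogenases was therefore 3.91 times higher on average in *Cnot3*-cKO cells, with no overlap between groups.

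Other aldehyde dehydrogenases were present at far lower levels. *Aldh1a7*, a close copy of *Aldh1a1*, was called higher, from 2.38 and 2.37 CPM to a mean of 6.64 ± 0.902 CPM (SD, n = 2; log2 fold change 1.48, edgeR adjusted p = 0.0016). *Aldh1a1* shares 6.54% of the 50-base stretches of its longest coding transcript with *Aldh1a7*, and how reads that match both were counted is not stated, so the small *Aldh1a7* count is uncertain. *Aldh1a3*, the third enzyme that makes retinoic acid, had 2.78 and 2.52 CPM in controls and 4.58 and 7.18 in *Cnot3*-cKO libraries, and its log2 fold change of 1.16 had an edgeR adjusted p of 0.0120, short of the threshold. *Aldh8a1* had 13 and 1 reads in controls and 0 in both *Cnot3*-cKO libraries, which allows up to 0.132 and 0.105 CPM, and it was too low to test. An antisense gene that overlaps exons of *Aldh1a1*, *C730002L08Rik*, had between 8 and 15 reads in every library.

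*Rdh10* and *Dhrs3* encode enzymes that run the retinol to retinal step in opposite directions, and only the second was called. *Rdh10*, the main retinol dehydrogenase of the embryo (chromosome 1, 16105774 to 16133734, forward strand), had 13.2 and 15.2 CPM in controls and 16.3 and 16.8 in *Cnot3*-cKO libraries. Its log2 fold change was 0.22 (standard error 0.16, edgeR adjusted p = 0.396), with a 95% interval from -0.13 to 0.57. *Dhrs3*, which returns retinal to retinol and is itself induced by retinoic acid in many tissues (chromosome 4, 144892827 to 144928209, forward strand), had 11.7 and 10.7 CPM in controls and 26.2 and 21.7 in *Cnot3*-cKO libraries. Its log2 fold change was 1.09 (standard error 0.16, edgeR adjusted p = 6.47e-04). The call was lost when 1 library was left out: without *Cnot3*-cKO replicate 1 the log2 fold change was 0.94 and fell short of a fold change of 2. Per kb of exon, *Dhrs3* stood at 1.13 ± 0.179 times *Rdh10* in controls and at 2.06 ± 0.319 times in *Cnot3*-cKO libraries (SD, n = 2), without overlap.

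The other genes of retinol handling were mostly not called. Of 12 tested genes for the retinol and retinal step, 2 were called higher and 0 lower, and the median log2 fold change was 0.35. The higher ones were *Adh1*, an alcohol dehydrogenase that oxidises retinol (12.4 and 11.8 CPM against 32.5 and 36.8, log2 fold change 1.52), and *Dhrs7* (3.70 and 3.75 CPM against 10.5 and 11.3, log2 fold change 1.55). *Adh5*, the gene of this list with the most reads, had 121.8 and 131.1 CPM against 167.8 and 164.9, a log2 fold change of 0.40 (edgeR adjusted p = 0.0065) that is under the fold limit. Of 7 tested genes for uptake and storage, 1 was called higher and 0 lower: *Stra6*, the membrane receptor that brings retinol into cells. It had 1.29 and 1.66 CPM in controls and 5.78 and 5.20 in *Cnot3*-cKO libraries (log2 fold change 1.89, edgeR adjusted p = 7.51e-04), a low level in both. *Dgat1*, an acyltransferase that can esterify retinol, was the most abundant of that list and had 54.8 and 56.8 CPM against 52.4 and 48.0.

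Genes of the cells that surround germ cells moved together with *Aldh1a1* and *Dhrs3*. Of 10 Sertoli cell markers, 9 were called higher and 0 lower, and their summed level went from 89.8 and 89.8 CPM in controls to 292.3 and 312.7 in *Cnot3*-cKO libraries. *Sox9*, *Amh* and *Wt1*, which define Sertoli cells, had log2 fold changes of 2.23, 2.62 and 1.66. Of 5 tested Leydig cell markers, 4 were called higher, and the list summed to 367.2 and 322.1 CPM in controls and to 829.6 and 895.3 in *Cnot3*-cKO libraries. The steroid enzyme genes *Cyp11a1* and *Cyp17a1* had log2 fold changes of 1.20 and 1.49, *Star* had 0.80 and was not called, and *Insl3* was at 0 reads in all 4 libraries. Macrophage markers were called higher for 7 of 8 genes (*Csf1r*, log2 fold change 1.21), with sums of 201.3 and 128.3 CPM in controls and 457.5 and 374.8 in *Cnot3*-cKO libraries. Of 6 peritubular myoid genes (*Acta2* 0.94, *Myh11* 0.33), 0 were called by edgeR and 0 of the 3 with an adjusted p by DESeq2. Of 6 interstitial stroma genes 0 were called by either tool. These lists had 1 and 3 genes higher at an unadjusted p under 0.05, and all of these also passed the looser threshold. Of 6 tested endothelial genes 2 were called higher. In sorted bulk RNA, more cells of a type and more RNA per cell cannot be told apart.

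Set against these lists within each library, *Aldh1a1* differed less between the groups. There were 2.12 and 1.80 *Aldh1a1* reads per Sertoli list read in controls and 1.78 and 1.58 in *Cnot3*-cKO libraries. Per Leydig list read the values were 0.520 and 0.502 in controls and 0.626 and 0.553 in *Cnot3*-cKO libraries, and per macrophage list read they overlapped between groups. Most of the Leydig sum came from *Hsd3b1*, so the Leydig ratio rests largely on that gene. Its mean was 267.2 of 344.6 CPM in controls and 682.7 of 862.5 CPM in *Cnot3*-cKO libraries. The ratios of group means were 0.856 for the Sertoli list and 1.15 for the Leydig list, against 2.88 for *Aldh1a1* alone. *Dhrs3* reads per Sertoli list read went from 0.130 and 0.120 in controls to 0.0896 and 0.0694, and per Leydig list read from 0.0318 and 0.0333 to 0.0316 and 0.0242. The part of these cells in the higher *Aldh1a1* and *Dhrs3* counts was not tested.

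**Figure D2:**
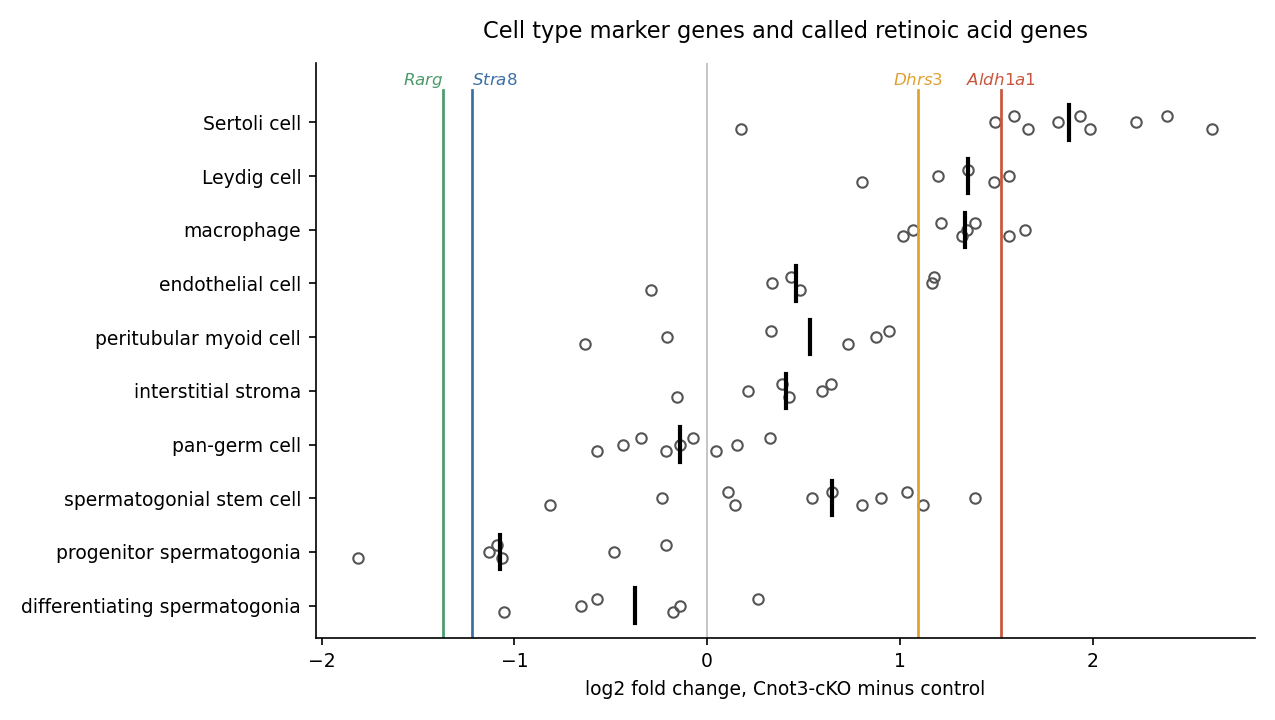
Log2 fold change (*Cnot3*-cKO minus control) of each tested marker gene, as open circles in 1 row per cell type list, with a black bar at the list's median and coloured lines at the values of *Aldh1a1*, *Dhrs3*, *Stra8* and *Rarg*. The lines of *Aldh1a1* and *Dhrs3* fall within the range of the Sertoli, Leydig and macrophage genes, whose medians are 1.88, 1.35 and 1.34. Of the Sertoli genes, only *Rhox5*, which was not called, lies below *Dhrs3*, and only *Rhox5* and *Inha* lie below *Aldh1a1*. Of the Leydig genes, only *Star* lies below *Dhrs3*. The lines of *Stra8* and *Rarg* fall beside the progenitor genes, whose median is -1.08.

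*Crabp1*, which encodes a cytoplasmic protein that binds retinoic acid (chromosome 9, 54764748 to 54773110, forward strand), was lower in *Cnot3*-cKO cells but under the fold limit. It had 54.9 and 73.1 CPM in controls and 37.5 and 37.7 in *Cnot3*-cKO libraries, so the controls differed more from each other than the *Cnot3*-cKO libraries did. The log2 fold change was -0.77 (standard error 0.14, 95% interval -1.06 to -0.47, edgeR adjusted p = 0.0019). Relative to 1000 reads of the pan-germ cell list, *Crabp1* was at 7.71 and 9.60 in controls, against 6.05 and 5.74 in *Cnot3*-cKO libraries. Its relative *Crabp2* was scarce, at 1.46 and 0.88 CPM against 0.71 and 1.15, and the groups overlapped. *Fabp5*, a fatty acid binding protein that can also carry retinoic acid, had 4.96 and 4.94 CPM against 7.63 and 7.67 (log2 fold change 0.63, edgeR adjusted p = 0.0571) and was not called.

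*Cyp26b1*, which encodes an enzyme that breaks down retinoic acid (chromosome 6, 84571414 to 84593908, reverse strand), was the 1 gene of the 9 whose groups overlapped. It had 11.9 and 10.5 CPM in controls and 11.6 and 13.9 in *Cnot3*-cKO libraries. The log2 fold change was 0.19 (standard error 0.18, edgeR adjusted p = 0.524), and its 95% interval from -0.21 to 0.59 leaves out a change of 2-fold in either direction. *Cyp26a1* was lower still, at 1.84 and 2.68 CPM against 1.28 and 2.20, and *Cyp26c1* stayed under 0.67 CPM in every library. Neither was called.

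*Rarg* and *Rara* encode retinoic acid receptors, and the first fell while the second was not called. *Rarg*, the receptor found in spermatogonia that can respond to retinoic acid (chromosome 15, 102234938 to 102257517, reverse strand), had 39.0 and 42.6 CPM in controls and 15.7 and 15.9 in *Cnot3*-cKO libraries. Replicates lay close together and the groups far apart. The log2 fold change was -1.37 (standard error 0.13, edgeR adjusted p = 3.14e-05), so the control level was 2.58 times the *Cnot3*-cKO level. *Rara*, which is best known from Sertoli cells in the testis (chromosome 11, 98927818 to 98974942, forward strand), had 29.2 and 30.7 CPM in controls and 25.4 and 24.8 in *Cnot3*-cKO libraries. Its log2 fold change was -0.25 (standard error 0.13, 95% interval -0.53 to 0.03, edgeR adjusted p = 0.201).

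Which receptor led therefore differed between the groups. Per kb of exon, *Rarg* reads were 1.37 and 1.42 times *Rara* reads in controls and 0.630 and 0.657 times in *Cnot3*-cKO libraries. The third receptor, *Rarb*, had at most 25 reads in a library and a log2 fold change of -0.54 that was not called (edgeR adjusted p = 0.671). Among the RXR partners, *Rxra* was the most abundant, at 130.0 and 156.8 CPM in controls and 84.6 and 88.9 in *Cnot3*-cKO libraries. Its log2 fold change of -0.72 (standard error 0.10, edgeR adjusted p = 4.99e-04) was under the fold limit. *Rxrb* had 37.6 and 50.2 CPM against 36.0 and 35.2, and *Rxrg* stayed under 1.54 CPM, and neither was called. Of 10 receptor coregulators, 0 were called by edgeR and 0 of the 9 with an adjusted p by DESeq2. At an unadjusted p under 0.05 there were 2 higher and 2 lower, and 2 higher and 0 lower passed the looser threshold. These were *Nrip1* (41.0 and 41.3 CPM against 64.9 and 80.6, log2 fold change 0.82, edgeR adjusted p = 5.62e-04) and *Nr2f2* (log2 fold change 0.77). With scaling to the pan-germ cell list *Nrip1* was called higher (1.02). *Ncor1*, a corepressor of unliganded RAR and the most abundant, had 317.8 and 273.7 CPM against 292.2 and 285.6.

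**Figure D3:**
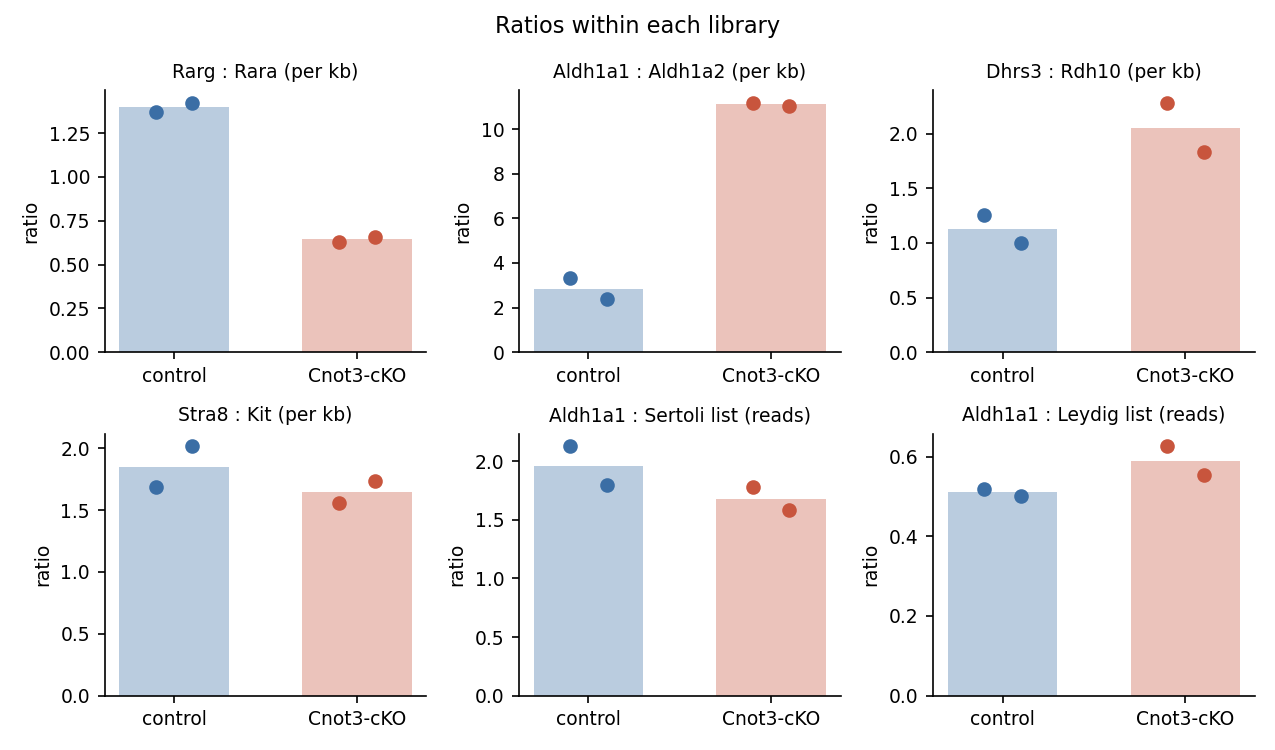
Ratios within each library, with 1 point per library and a bar at the mean of 2, from a zero baseline on a linear axis; 4 panels divide genes by exon length and 2 divide *Aldh1a1* reads by the summed reads of a marker list. *Rarg* to *Rara* goes from above 1 in both controls to 0.630 and 0.657 in *Cnot3*-cKO libraries, *Aldh1a1* to *Aldh1a2* goes from 2.36 and 3.32 to 11.0 and 11.2, and *Stra8* to *Kit* overlaps between the groups.

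*Stra8*, which retinoic acid induces in differentiating spermatogonia and which is needed for meiotic entry (chromosome 6, 34920163 to 34939344, forward strand), fell. It had 87.0 and 112.8 CPM in controls, from 3509 and 4751 reads, and 37.6 and 48.2 CPM in *Cnot3*-cKO libraries, from 852 and 1382 reads. The means were 99.9 ± 18.2 (SD, n = 2) and 42.9 ± 7.52 (SD, n = 2), and both *Cnot3*-cKO libraries lay under both controls. The log2 fold change was -1.22 (standard error 0.14, edgeR adjusted p = 1.30e-04), so the control level was 2.33 times the *Cnot3*-cKO level.

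Of the 13 tested genes of the retinoic acid responsive list, 1 was called higher and 2 lower, and the median log2 fold change was 0.08. *Kit*, the receptor tyrosine kinase that marks differentiating spermatogonia, had 255.2 and 276.7 CPM in controls and 118.9 and 137.5 in *Cnot3*-cKO libraries (log2 fold change -1.05). *Meioc*, which is needed for meiotic prophase, had 94.7 and 151.1 CPM against 43.2 and 59.3 (log2 fold change -1.26). The call of *Kit* was lost without *Cnot3*-cKO replicate 1 (log2 fold change -0.96), with scaling by library size only (-0.99) and with scaling to the pan-germ cell list (-0.85). That of *Meioc* was lost without control replicate 2 (-0.89). In each case the fold limit was missed. *Rarres1* was the gene called higher, from 1.51 and 1.95 CPM to 5.73 and 5.72. *Sohlh1*, a transcription factor of differentiating spermatogonia, had 108.6 and 145.9 CPM against 108.6 and 116.3. *Stra8* stood at 1.69 and 2.01 times *Kit* per kb of exon in controls and at 1.56 and 1.73 times in *Cnot3*-cKO libraries, and at 5.27 and 6.26 times *Rarg* against 5.67 and 7.16 times, and both ratios overlapped between the groups.

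Among the lists for germ cell stage, that of progenitor spermatogonia moved beside *Rarg* and *Stra8*. Its median log2 fold change was -1.08, against -0.38 for the differentiating list and 0.65 for the stem cell list. Of 6 progenitor spermatogonia markers, 0 were called higher and 4 lower, and their summed level was 519.4 and 517.8 CPM in controls and 263.8 and 256.4 in *Cnot3*-cKO libraries. Of 6 differentiating spermatogonia markers only *Kit* was called, and of 11 stem cell markers 2 were called higher and 0 lower. *Id4*, whose reporter was used for the sort, rose from 20.6 and 19.7 to 36.2 and 46.3 CPM. *Gfra1*, a stem cell receptor, had a log2 fold change of 0.90, and *Zbtb16*, which marks undifferentiated spermatogonia, one of -0.82, both under the fold limit. Of the 9 pan-germ cell genes, 0 were called by edgeR or DESeq2. At an unadjusted p under 0.05 there were 1 higher and 4 lower, and 1 higher and 3 lower passed the looser threshold. *Ddx4* and *Dazl* had log2 fold changes of 0.05 and -0.21. The sum of that list was 7115 and 7608 CPM in controls and 6194 and 6573 in *Cnot3*-cKO libraries.

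*Rarg* and *Stra8* were also lower when set against germ cell reads. Per 1000 pan-germ cell list reads, *Stra8* had 12.2 and 14.8 in controls and 6.06 and 7.33 in *Cnot3*-cKO libraries, and *Rarg* had 5.48 and 5.59 against 2.53 and 2.42. Set against the progenitor list the differences were smaller. *Stra8* reads per progenitor list read were 0.168 and 0.218 in controls and 0.142 and 0.188 in *Cnot3*-cKO libraries, which overlap. *Rarg* had 0.0751 and 0.0822 against 0.0593 and 0.0620, which do not overlap. The part of the progenitor share in the lower *Stra8* and *Rarg* counts was not tested.

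RAR and RXR pairs bind repeats of a half-site whose best known form is AGGTCA. The 250 bases before each RefSeq start site (GRCm38.p6) were searched for these letters on both strands, in 15 windows of 8 of the 9 genes. Every half-site found is shown, and they lay before *Stra8* and before 1 of the start sites of *Rarg*. Another *Rarg* window held 0. Of the 15 windows, 2 held it, 1 with 2 copies and 1 with a single copy. Of all 32851 windows of this length in the RefSeq set, 14.0% held at least 1 copy and 1.36% at least 2. For at least 1 copy, the share among the 15 windows was near that of all windows. The presence of a half-site therefore does not set these genes apart. Below, each half-site is in capitals within 30 bases read along the gene's strand, and TGACCT is AGGTCA on the other strand.
*Stra8*, 194 bases before the start (chr6:34920742-34920771, forward strand): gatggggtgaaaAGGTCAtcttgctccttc
*Stra8*, 38 bases before the start (chr6:34920898-34920927, forward strand): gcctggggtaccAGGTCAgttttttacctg
*Rarg*, 225 bases before the start (chr15:102257730-102257759, reverse strand): agcccaggacacTGACCTctgccagctctg

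Both *Stra8* stretches lie within an exon of a longer GENCODE transcript that starts further upstream, and the *Rarg* stretch lies outside the annotated gene. Pairs were searched on both strands with a looser half-site: A or G, then G, then G or T, then TCA. No window of these 8 genes held such half-sites spaced as direct repeats by 1, 2 or 5 bases. Such pairs were in 0.164%, 0.174% and 0.0883% of all windows. A match is only a run of letters, and no binding was measured in these cells.

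**Figure D4:**
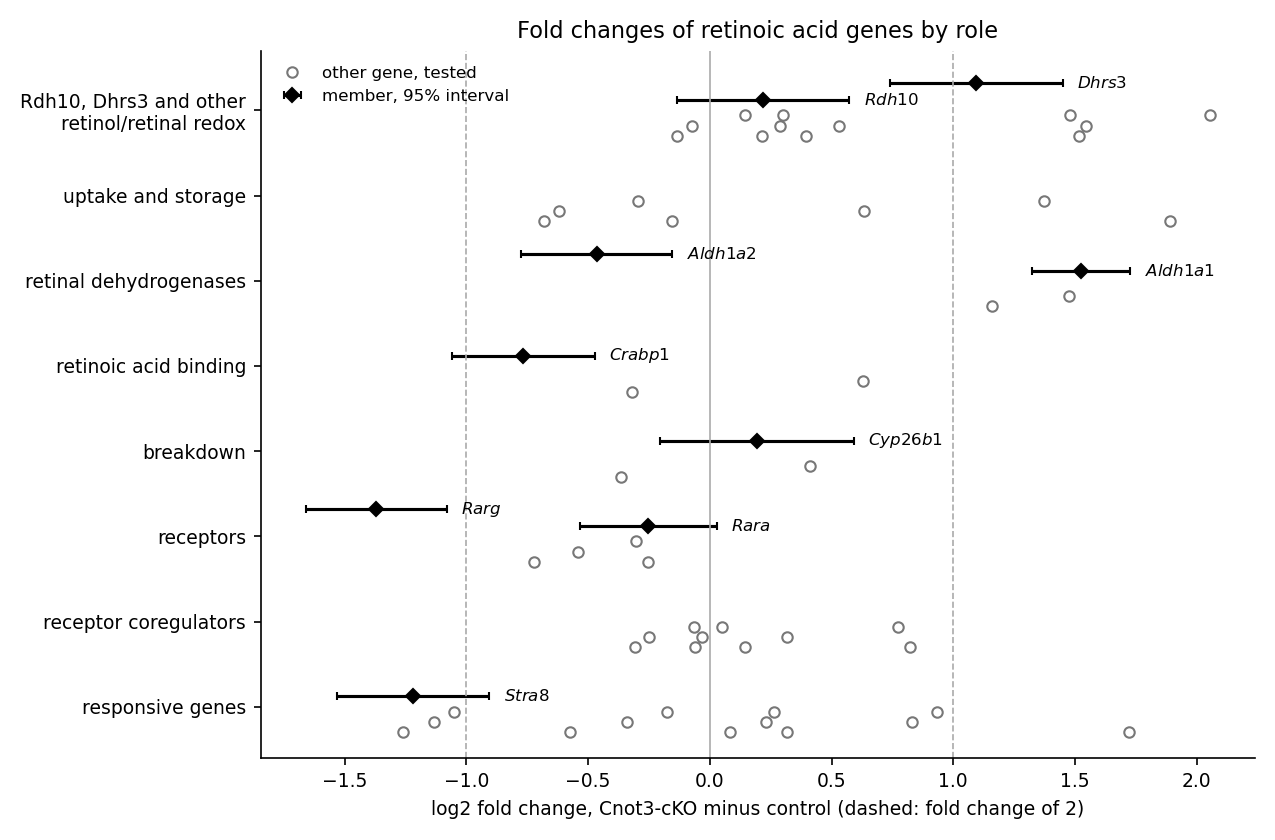
Log2 fold change (*Cnot3*-cKO minus control) of the 9 genes as black diamonds with 95% intervals, and of 52 other tested retinoic acid genes as open circles, in 1 row per role, with dashed lines at a fold change of 2. Only *Aldh1a1* and *Dhrs3* of the 9 lie beyond the line on the right, at 1.52 and 1.09, and only *Rarg* and *Stra8* beyond that on the left, at -1.37 and -1.22.

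Across the wider pathway, 52 of 63 other listed genes were tested, 5 were called higher and 2 lower, and their median log2 fold change was 0.14. The 5 higher genes (*Stra6*, *Adh1*, *Dhrs7*, *Aldh1a7* and *Rarres1*) were all of low to moderate level, and each had a mean under 35 CPM in both groups. The 2 lower genes, *Kit* and *Meioc*, had means of 266.0 and 122.9 CPM in controls. Outside the 9, edgeR called 0 of 4 receptors, 0 of 2 binding proteins and 0 of 2 breakdown enzymes, and *Rxra* and *Fabp5* were the ones at an unadjusted p under 0.05. DESeq2 called 0 of 3, 0 of 2 and 0 of 1, since it gave no adjusted p for *Rarb* and *Cyp26c1*.

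The order of the 9 genes by level also differed between the groups. Per kb of exon, the control means ran *Crabp1* (79.8 CPM per kb), *Stra8* (55.4), *Aldh1a1* (35.7), *Aldh1a2* (12.7), *Rarg* (9.57), *Rara* (6.85), *Dhrs3* (3.83), *Rdh10* (3.42) and *Cyp26b1* (2.09). In *Cnot3*-cKO cells *Aldh1a1* came first, at 102.7 CPM per kb, *Dhrs3* moved above *Rara*, and *Rarg* moved below *Rdh10*, at 3.70. Each gene was above the next in every library of its group, and the closest neighbours were *Dhrs3* and *Rdh10* in controls. Several places depend on the length used. Per kb of the longest coding transcript, *Aldh1a1* had 80.9 and 68.5 CPM in controls, which is above *Stra8* and overlaps *Crabp1* at 68.4 and 91.1. On that scale *Rarg* (mean 13.8) was above *Aldh1a2* (12.7) in controls, with overlapping libraries, and in *Cnot3*-cKO cells it stayed above *Rdh10* (5.34 against 4.62). *Dhrs3* (10.2) was then above *Aldh1a2* (9.24) in *Cnot3*-cKO cells, again with overlap. On both scales *Aldh1a1* came first in *Cnot3*-cKO cells, *Dhrs3* moved above *Rara*, and *Rarg* moved from above *Rara* to below it.

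**Figure D5:**
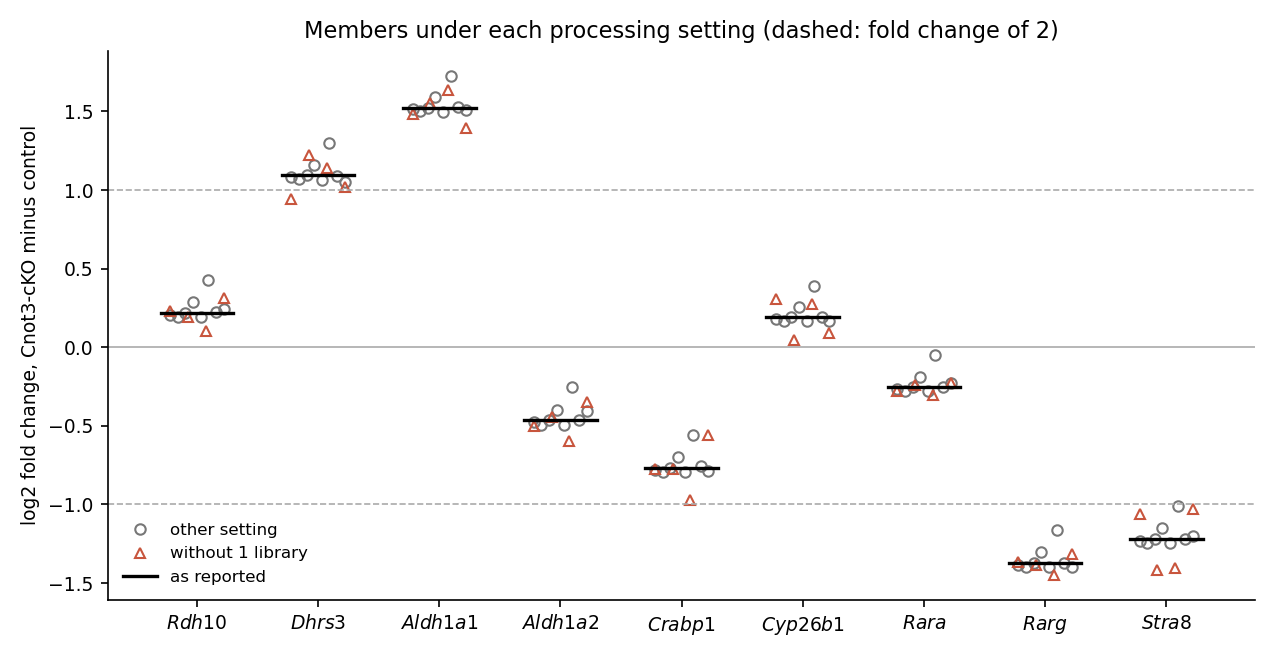
Log2 fold change (*Cnot3*-cKO minus control) of each of the 9 genes as reported (black line), under each other setting (grey circles) and without 1 library (red triangles), with dashed lines at a fold change of 2. *Aldh1a1* and *Rarg* stay beyond the dashed lines under every setting plotted, *Stra8* comes closest to its line at -1.01 when scaled to germ cell genes, and *Dhrs3* crosses it at 0.94 in 1 setting.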

How the data were processed

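RNA-seq of ID4-EGFP+ cells sorted from the mouse testis at P8 was analysed, with 2 libraries each of control and *Cnot3*-cKO cells. The values are read counts per gene, deposited without normalization, which the authors made by aligning reads to mm10 with STAR and counting with featureCounts. The library kit was stranded, and the strand setting and the treatment of reads matching several genes are not given in the sources used here. Totals of 22192964 to 43378493 reads set the counting precision, and 3 reads was taken as the limit that a count of 0 allows, for counting error only. The controls were deeper than the *Cnot3*-cKO libraries.

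edgeR 4.0.16 (R 4.3.3) was run on all genes with TMM scaling, its default expression filter, the quasi-likelihood test and Benjamini-Hochberg adjustment over 23952 genes. Calls took an adjusted p under 0.01 with a more than 2-fold change, as in the study. Intervals are 95% intervals from the fitted standard error. The study's own test, DESeq2 (1.42.0), was an alternative, with other scalings, no filter, a looser threshold, a replicate block and leaving out each library. Thinning every library to the smallest total was chosen after seeing the data. The procedure was tested on simulated data.

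Gene positions, exon lengths and shared sequence came from GENCODE M21 on GRCm38, and start sites from RefSeq (GRCm38.p6), where 8 of 9 members matched by symbol. Python 3.11.15 was used. The members and gene lists were chosen with earlier results of these data known. Genes named were the 9 members, *Cnot3*, all other retinal dehydrogenases, binding proteins, breakdown enzymes and receptors, the called genes and the most abundant gene of the 4 remaining pathway lists, and a fixed set of cell type markers. *C730002L08Rik*, *Leng1* and *Mir3572* are named for their overlap with a member or with *Cnot3*. *Nrip1*, *Nr2f2*, *Rhox5*, *Inha* and *Hsd3b1* are named for their values, outside these rules.

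Libraries with the same replicate number were not treated as pairs, because the labels do not say whether they belong together. The deviations of those numbered 1 from their group means correlated at 0.0522 over 23952 genes. That value cannot decide whether the libraries were paired.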

Additional observations from a re-analysis of the deposited data

How the results depend on the processing

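*Aldh1a1*, *Rarg* and *Stra8* kept their direction and their call under every alternative run, and *Dhrs3* under all but 1. Without 1 library the log2 fold changes ranged from 1.40 to 1.63 for *Aldh1a1*, 0.94 to 1.22 for *Dhrs3*, -1.45 to -1.32 for *Rarg*, -1.42 to -1.03 for *Stra8*, -0.97 to -0.56 for *Crabp1*, -0.60 to -0.35 for *Aldh1a2*, -0.30 to -0.23 for *Rara*, 0.11 to 0.31 for *Rdh10*, 0.05 to 0.31 for *Cyp26b1* and -1.59 to -1.37 for *Cnot3*. In these fits the lone library of a group is assumed to vary like the others. The *Dhrs3* call was lost without *Cnot3*-cKO replicate 1, which left 1 to 2 members called higher, while 2 were called lower in every such fit. Other pathway genes called higher ranged from 5 to 7 and lower from 1 to 2, with 1 lower without control replicate 2 and without *Cnot3*-cKO replicate 1. At an adjusted p under 0.05 with no fold limit, *Aldh1a2* (-0.47) and *Crabp1* (-0.77) were called too, making 4 members lower, and 10 other pathway genes were called higher and 5 lower.

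Scaling to the pan-germ cell list moved the median log2 fold change of all genes to 0.21, from 0.01, and gave 8 other pathway genes higher and 1 lower. Library size alone gave 1 lower. The call lost was that of *Kit* in both (-0.85 and -0.99). Over all genes, the 965 higher and 176 lower calls became 1413 and 78 with pan-germ cell scaling, 1250 and 285 with no filter, 1102 and 271 without *Cnot3*-cKO replicate 2, and 2659 and 2266 at the looser threshold, where 54.0% of calls were higher instead of 84.6%. With pan-germ cell scaling 94.8% were higher. Of uncalled genes, *Crabp2* (0.074), *Rxrg* (0.19) and *Ncor1* (0.062) changed sign without control replicate 1, and without 1 library they ranged from -0.73 to 0.074, -0.61 to 0.19 and -0.15 to 0.062. *Ncor1* also changed sign with library size only (0.030) and pan-germ cell scaling (0.17), and *Dgat1* with pan-germ cell scaling (0.054). The cause was not tested. *Aldh1a3*, not called as reported, was called under 8 alternatives, its log2 fold change ranging from 0.79 to 1.43 without 1 library.

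A replicate block gave 1155 genes higher and 217 lower and changed no member's call (*Stra8* -1.22, *Rarg* -1.37, *Aldh1a1* 1.53, *Dhrs3* 1.09). With the block the standard error was lower for *Stra8* (0.107 against 0.144 as reported) and higher for *Rarg* (0.141 against 0.133). The labels do not say whether the replicate numbers pair the samples.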
